A study of Mus musculus with 123 samples.

Results

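Kit, Mal, Pcdh19 and Pecam1 encode proteins of the cell surface and its membrane, and are 4 of the 29022 genes counted in single mouse embryos. They were chosen by their levels in these embryos: Kit, Mal and Pcdh19 for near absence from the late inner cell mass (ICM) without Oct4, and Pecam1 for lying below its controls both without Oct4 and without Sox2. The contrasts of KO with Ctrl ICMs are therefore described and not tested, and so are those of Ctrl with MWT ICMs, which use the same Ctrl embryos. Tests were kept for the MWT stage steps and for morulae. A name such as genes lost without Oct4 holds for Kit, Mal and Pcdh19, which had 0 unique molecular identifiers (UMIs) in all 8 Oct4 KO late ICMs. It does not hold for Pecam1, which kept 63 UMIs there.

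Transcripts were measured in libraries that were each made from 1 embryo or 1 isolated ICM, in 16 groups. Mothers in both lines carried floxed alleles and Zp3-Cre, which is expressed in the oocyte, so Ctrl and KO embryos alike lack the maternal gene product. Ctrl embryos received an intact paternal allele, and KO embryos a mutant paternal allele that also carries a fluorescent reporter under the PGK promoter (mKO2 for Oct4, EGFP for Sox2). The study identified KO embryos by that reporter under the microscope, and also checked genotypes by mapping RNA-seq reads to the reporter cassettes. It describes EGFP as weak before the blastocyst, and does not state that Sox2 KO morulae were sorted by it. Ctrl and KO embryos of each line were taken as morulae labelled E2.75, early ICMs labelled E3.75 and late ICMs labelled E4.5, with 8 embryos in each of these 12 groups. A further set labelled Ctrl_MWT, called MWT here, comprised, in the Oct4 line, 7 morulae, 5 ICMs titled early and 8 titled late, and in the Sox2 line 7 ICMs, all early. The labels do not spell out MWT, and the study's text speaks of wild-type embryos beside the maternal KO. All mice were labelled B6C3F1. Per the protocol, embryos for ICMs were cultured from E2.5 with the MEK inhibitor PD0325901 at 1 µM, which holds back primitive endoderm, and the outer cells were then removed by immunosurgery. The Oct4 MWT early ICMs carry no treatment label, and in both ICM stages of the Oct4 MWT set the source label names another stage than the title. The title was followed, so stage results in MWT embryos rest on it.

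Oct4, encoded by Pou5f1, and Sox2 are transcription factors that bind DNA next to each other and maintain pluripotency in the epiblast. Kit is the receptor tyrosine kinase for stem cell factor (Kitl) and is known for its part in germ cells, blood progenitors and melanocytes. Mal is a small MARVEL-domain protein of cholesterol-rich membrane that carries cargo to the apical surface of epithelia. Pcdh19 is an X-linked delta-protocadherin, a homophilic adhesion molecule whose inner tail binds the WAVE actin complex. Pecam1, or CD31, is an immunoglobulin-family adhesion molecule of endothelium, platelets and leukocytes, and it also marks the surface of the mouse ICM and of embryonic stem cells.

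In the mm10 coordinates of the deposited table, Kit (ENSMUSG00000005672) lies on the plus strand at chr5:75574916-75656722. Mal (ENSMUSG00000027375) lies on the minus strand at chr2:127633226-127656695, Pcdh19 (ENSMUSG00000051323) on the minus strand at chrX:133582860-133688987, and Pecam1 (ENSMUSG00000020717) on the minus strand at chr11:106654217-106750628. All 4 are annotated as protein coding, with 8 transcripts of Kit, 2 of Mal, 5 of Pcdh19 and 8 of Pecam1 in GENCODE vM21. No other gene overlaps Kit, Mal or Pecam1. The lincRNA Gm26851, on the opposite strand, overlaps the first part of Pcdh19 at chrX:133687780-133707262. It was not analysed here. The shared stretch, chrX:133687780-133688987, holds the 5′ ends of both genes, while the libraries were enriched for 3′ ends.

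The stretches just upstream of Kit, Mal and Pcdh19 are shown because these 3 genes were absent from the same 8 embryos, and the motifs that Oct4 and Sox2 bind were looked for in them. They were taken from the RefSeq promoter table for GRCm38.p6, which holds no window for Pecam1, and run 5′ to 3′ on the strand of each gene with CG dinucleotides in capitals. The Kit stretch is cut short where the GENCODE gene begins. Their positions are chr5:75574737-75574915 for Kit, chr2:127656696-127656945 for Mal and chrX:133688994-133689243 for Pcdh19.
Kit: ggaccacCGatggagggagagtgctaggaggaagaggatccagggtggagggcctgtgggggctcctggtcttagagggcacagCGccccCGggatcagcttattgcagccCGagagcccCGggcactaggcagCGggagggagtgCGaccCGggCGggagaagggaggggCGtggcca
Mal: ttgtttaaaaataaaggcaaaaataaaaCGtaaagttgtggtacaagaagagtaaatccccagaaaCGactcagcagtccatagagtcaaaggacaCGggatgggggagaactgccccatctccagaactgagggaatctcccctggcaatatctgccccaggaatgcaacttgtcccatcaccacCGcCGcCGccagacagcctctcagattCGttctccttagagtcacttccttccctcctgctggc
Pcdh19: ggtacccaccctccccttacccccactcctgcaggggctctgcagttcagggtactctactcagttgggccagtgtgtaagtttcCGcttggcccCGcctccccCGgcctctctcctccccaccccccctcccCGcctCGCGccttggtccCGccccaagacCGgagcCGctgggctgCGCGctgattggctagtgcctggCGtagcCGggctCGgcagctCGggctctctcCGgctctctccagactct
Over 250 bases upstream of the RefSeq start, the Kit and Pcdh19 windows were rich in G and C, at 70.8% and 69.2%, against a median of 52.4% over all 32851 windows of the table. The Mal window was close to that median at 50.0%. Kit held 17 CG dinucleotides, Pcdh19 16 and Mal 7, against a median of 6. In the windows of these genes, which run on for 50 bases past the start, neither strand held the octamer ATGCAAAT or the SOX motif CATTGT. The octamer was found in 1.74% of all windows and the SOX motif in 12.6%. The composite of both motifs, with 0 or 1 base between CATTGT and ATGCAAA, was likewise in none of them and in 0.00304% and 0.00609% of all windows. These are matches of letters within short windows only, and the composite overlaps the SOX motif by construction.

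Libraries held 525755 to 1344035 UMIs, so 1 UMI stands for about 1 CPM, the UMI count scaled to a common total per embryo, and intervals below cover counting error only. Replicates are separate embryos, and no pair of embryos in a group had counts as close as a library entered again would give (lowest chi-square per gene 2.63 over 416 pairs). The targeted genes followed their labels. Pou5f1 had 3, 7 and 1 UMIs in Oct4 KO morulae, early ICMs and late ICMs against 163, 550 and 236 in Ctrl, and Sox2 had 176 and 108 UMIs in Sox2 KO early and late ICMs against 800 and 1274 in Ctrl. In Sox2 KO morulae it stood at a mean of 1.57 CPM against 13.8 CPM in Ctrl. Epiblast markers were present in the ICMs as labelled: the summed level of 9 such genes was 2581 to 3947 CPM in Oct4 Ctrl late ICMs, and none of the 9 was at 0 in any group. In Oct4 KO late ICMs that sum was 496 to 1006 CPM, while the sum of 9 trophectoderm markers was 1514 to 2971 CPM against 153 to 969 in Ctrl. The epiblast sum lay below Ctrl with no overlap in each other contrast of KO with Ctrl ICMs too. For Sox2 it was 1377 to 2032 CPM in late KO ICMs, against 2687 to 4398 in Ctrl. Early KO ICMs stood at 1320 to 1780 CPM in that line, against 1877 to 3987 in Ctrl. Those lacking Oct4 stood at 1170 to 1637 CPM at the early stage, against 1913 to 2989 in Ctrl. In whole embryos and ICMs, fewer cells of a type and less RNA per cell cannot be told apart, and the part of these marker shifts in the levels below was not tested.

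**Figure D1:**
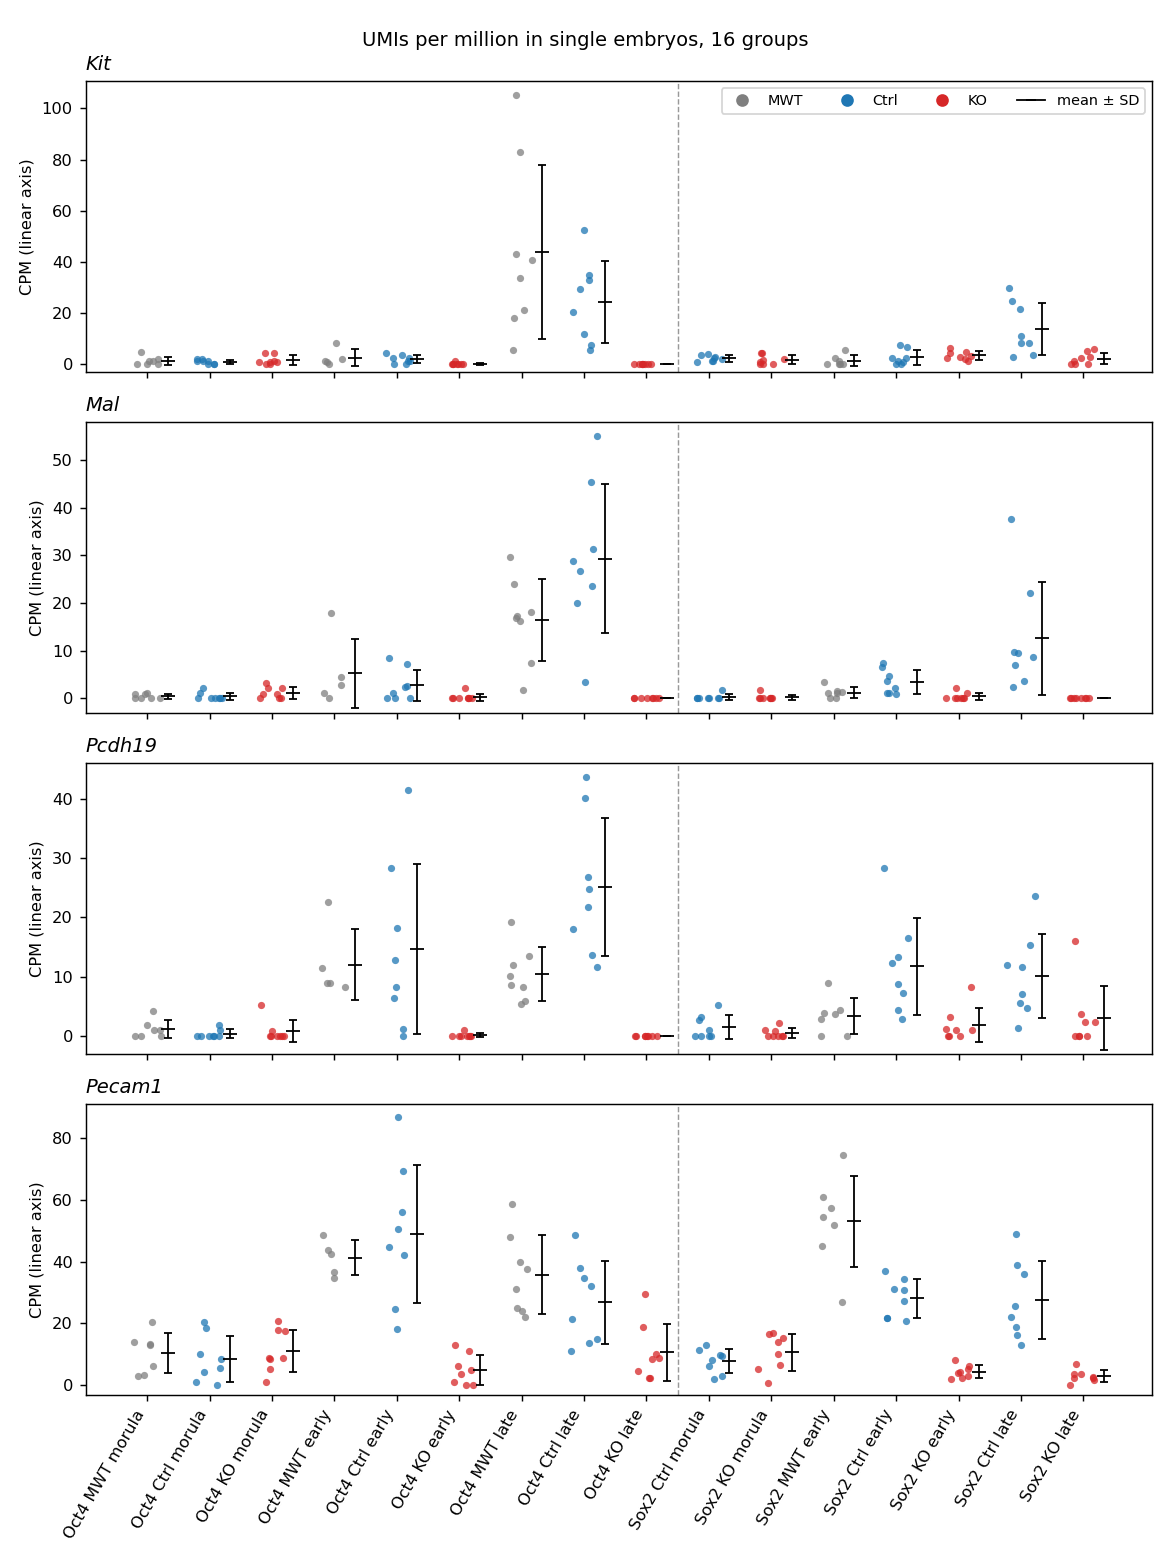
Level of Kit, Mal, Pcdh19 and Pecam1 in every embryo of the 16 groups, as CPM on a linear axis with a scale of its own for each gene, with 1 point for each embryo and the mean with its SD beside them, the Oct4 line left and the Sox2 line right of the dashed line. Kit, Mal and Pcdh19 stand at 0 in all 8 Oct4 KO late ICMs, whereas all 8 of these ICMs keep Pecam1, at 2.33 to 29.6 CPM.

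Kit, the receptor, was scarce until the late ICM. Morulae of the 5 groups held 7 to 19 Kit UMIs in all, and Oct4 Ctrl early ICMs 13, a mean of 1.88 ± 1.56 CPM (SD, n = 8). Oct4 Ctrl late ICMs held 133 UMIs, with a lowest level of 5.36, a median of 24.9 and a highest of 52.3 CPM. The Sox2 Ctrl late ICMs ran from 2.71 through a median of 9.72 to 29.6 CPM. Every Oct4 Ctrl late ICM lay above every Oct4 Ctrl early ICM.

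Without Oct4 this late level was not seen. The Oct4 KO early ICMs held 1 Kit UMI, in replicate 5, against 13 in Ctrl, and the late ICMs held 0 against 133. Given a floor of 3 UMIs over the group, or 0.50 CPM, Kit was at least 49.8-fold lower in Oct4 KO late ICMs. The fitted log2 differences were −2.78 in early and −7.45 in late ICMs, the second resting on the prior count of the fit because the group is at 0.

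Without Sox2, Kit lay near its Ctrl level in early ICMs and below it in late ICMs. Sox2 KO early ICMs held 24 Kit UMIs against 18 in Ctrl, a ratio of 1.34 (95% counting interval 0.698 to 2.62), and the fitted log2 difference was 0.46. Sox2 KO late ICMs held 14 against 97, a ratio of 0.153 (0.0808 to 0.270), with a fitted log2 difference of −2.49. Levels in those late ICMs ran from 0 through a median of 1.80 to 5.88 CPM, and 6 of 8 lay below the lowest Ctrl. Kit was thus the member whose pooled level lay below Ctrl in the late but not in the early Sox2 KO ICMs. The pooled late to early ratio was 0.665 (0.318 to 1.34) in Sox2 KO and 5.82 (3.49 to 10.2) in Sox2 Ctrl ICMs. The difference between stages was not tested, since the contrasts chose the genes.

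The ligand and the signalling partners of Kit were taken from a list of 24 genes, of which 21 were tested. Kitl itself was barely present, at 0 to 6 UMIs in a group, and was not among those tested. In Oct4 KO early ICMs 1 of the 21 rose and 3 fell, where 4.77% of all 14053 genes tested were called higher and 6.11% lower, a call being an adjusted p under 0.05 with a change of at least 1 on the log2 scale. Pdgfra, a sister receptor of Kit that marks primitive endoderm, fell by 2.31 on the log2 scale (edgeR adjusted p = 0.000265), and Pik3r1, a regulatory subunit of PI3 kinase, fell by 1.61 (adjusted p = 3.97e-05). The gene that rose was Fyn, a Src-family kinase, by 2.02 (edgeR adjusted p = 0.0362). In Oct4 KO late ICMs 3 rose and 3 fell, against 9.28% and 8.84% of all genes. Plcg1, a phospholipase that receptor kinases activate, fell by 1.74 there (edgeR adjusted p = 7.81e-06), and Fyn fell by 2.44 (adjusted p = 0.0310), while the transcription factor Stat5a rose by 1.60 (adjusted p = 0.000274). In the Sox2 line 2 rose and 0 fell in early ICMs, and 2 rose and 0 fell in late ICMs. In Sox2 KO early ICMs these were Lyn, a Src-family kinase, at 1.46, and Sos1, an exchange factor for Ras, at 1.23 (edgeR adjusted p = 0.00535 and 1.92e-07). In Sox2 KO late ICMs they were Gab2, a docking protein, at 2.13, and Stat5a at 1.22 (edgeR adjusted p = 7.07e-05 and 0.00128). The share of all genes called higher was 1.57% in Sox2 early ICMs and 3.36% in late ICMs, and called lower 1.69% and 3.61%. The median log2 difference of the list was −0.01 and −0.04 in the Oct4 line and −0.13 and −0.21 in the Sox2 line, against medians of all genes of 0.01, −0.0046, −0.01 and 0.0021.

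Mal, the membrane protein of apical transport, was also scarce before the late ICM. Morulae held 2 to 9 Mal UMIs per group. Oct4 Ctrl early ICMs held 19 UMIs and Sox2 Ctrl early ICMs 25, at means of 2.72 ± 3.34 and 3.45 ± 2.57 CPM (SD, n = 8 each). Oct4 Ctrl late ICMs held 152 UMIs, running from 3.34 through a median of 27.8 to 55.2 CPM. Sox2 Ctrl late ICMs held 87, from 2.31 through a median of 9.05 to 37.7 CPM.

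Mal was the only member at 0 in the late ICMs of both KO lines. The 8 Oct4 KO late ICMs and the 8 Sox2 KO late ICMs held 0 Mal UMIs, which put Mal at least 56.9-fold lower without Oct4 and at least 27.3-fold lower without Sox2. Early ICMs already held few: 2 UMIs against 19 in the Oct4 line, a ratio of 0.103 (0.0116 to 0.427), and 3 against 25 in the Sox2 line, a ratio of 0.121 (0.0233 to 0.395). Both of the Oct4 KO early UMIs came from replicate 10. In the Sox2 KO early ICMs 2 of the 3 came from another replicate 10, without which the ratio was 0.0460. The fitted log2 differences were −2.71 and −7.69 in Oct4 early and late ICMs and −2.64 and −6.45 in the Sox2 line.

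Relatives of Mal with the same membrane domain were counted beside it. Of 16 tested MARVEL-domain genes, 2 rose and 0 fell in Oct4 KO early ICMs, and 6 rose and 1 fell in late ICMs. Syp (synaptophysin, a vesicle protein) rose by 2.74 and 3.35 (edgeR adjusted p = 9.40e-06 and 0.000185). Marveld2, or tricellulin, a tight junction protein of epithelia, rose by 1.43 and 1.95 (edgeR adjusted p = 0.000872 and 2.28e-05). In the Sox2 line 0 of 16 were called in early ICMs, and in late ICMs only Ocln was, the tight junction protein occludin, which rose by 1.24 (edgeR adjusted p = 0.000213). Genes of tight junctions are also features of trophectoderm, whose markers were higher in the same KO ICMs: 3 of 9 rose and 1 fell in Oct4 early, 8 rose in Oct4 late, 5 rose in Sox2 early and 3 rose in Sox2 late ICMs. The part of those cells in the list was not tested. The list's medians were 0.01 and 0.75 in the Oct4 line and 0.30 and 0.37 in the Sox2 line. Of all genes, 4.77% were called higher and 6.11% lower in Oct4 early and 9.28% and 8.84% in Oct4 late ICMs. In the Sox2 line the shares were 1.57% and 1.69% in early and 3.36% and 3.61% in late ICMs.

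Pcdh19, the protocadherin, was scarce in morulae and present in the early ICMs of Ctrl embryos. Morulae held 3 to 13 Pcdh19 UMIs per group. Oct4 Ctrl early ICMs held 103 UMIs, from 0 through a median of 10.6 to 41.6 CPM, and Sox2 Ctrl early ICMs held 84, from 2.85 through a median of 10.5 to 28.3 CPM. Oct4 Ctrl late ICMs held 133, from 11.7 through a median of 23.3 to 43.7 CPM, and Sox2 Ctrl late ICMs 72, from 1.36 through a median of 9.31 to 23.7 CPM.

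In Oct4 KO early ICMs Pcdh19 was nearly absent. It had 1 UMI, in replicate 1, in 8 Oct4 KO early ICMs against 103 in Ctrl, a ratio of 0.00951 (0.000238 to 0.0542). The groups still met at 0, the level of 1 Ctrl ICM. In late ICMs it had 0 UMIs against 133, at least 49.8-fold lower. The fitted log2 differences were −5.66 and −7.47.

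Pcdh19 was partly kept without Sox2. Sox2 KO early ICMs held 13 UMIs against 84, a ratio of 0.156 (0.0796 to 0.281), and 7 of the 13 came from replicate 8. Without that embryo the ratio was 0.0811. Sox2 KO late ICMs held 20 against 72, a ratio of 0.295 (0.170 to 0.490), and 13 of the 20 came from replicate 2-6, at 15.9 CPM. Without that embryo the ratio was 0.118, on 7 UMIs. The fitted log2 differences were −2.55 and −1.59. In that embryo the epiblast marker sum was 1801 CPM and the primitive endoderm marker sum 1174 CPM, the latter the highest of the 8, and their part in its Pcdh19 level was not tested.

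The other protocadherins, cadherins, catenins and WAVE subunits formed a list of 22 genes, 15 of them tested. In Oct4 KO early ICMs 0 rose and 3 fell, and in late ICMs 1 rose and 2 fell. WAVE subunits made up most of these. Cyfip2 fell by 3.00 and 4.94 on the log2 scale (edgeR adjusted p = 0.0146 and 8.53e-06) and Wasf1 by 1.37 and 2.66 (edgeR adjusted p = 0.00288 and 3.67e-09), whereas Brk1 rose by 1.03 in late ICMs (edgeR adjusted p = 6.62e-11). The only protocadherin called was Pcdh1, which fell by 2.38 in Oct4 KO early ICMs (edgeR adjusted p = 0.0299). In the Sox2 line Cyfip2 alone was called, in early ICMs, where it fell by 2.46 (edgeR adjusted p = 0.0133), and 0 of 15 were called in late ICMs. The list's medians were −0.06, 0.10, 0.07 and 0 in these 4 comparisons. Among all genes 4.77% were called higher and 6.11% lower in Oct4 early and 9.28% and 8.84% in Oct4 late ICMs. In the Sox2 line these shares were 1.57% and 1.69% in early and 3.36% and 3.61% in late ICMs.

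Pecam1, the immunoglobulin-family adhesion molecule, was present in every group and differed from the other members in being well represented in morulae. Morulae held 67 to 90 Pecam1 UMIs per group, at means of 7.87 to 11.1 CPM. Oct4 Ctrl early ICMs held 333 UMIs, from 18.2 through a median of 47.6 to 86.6 CPM, and Sox2 Ctrl early ICMs 206, from 20.7 through a median of 29.0 to 36.9 CPM. Oct4 Ctrl late ICMs held 137, from 11.1 through a median of 26.8 to 48.4 CPM, and Sox2 Ctrl late ICMs 187, from 13.0 through a median of 24.0 to 49.0 CPM.

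In KO early ICMs of both lines all embryos lay below all Ctrl embryos for Pecam1. Oct4 KO early ICMs held 34 UMIs, a ratio of 0.10 (0.0681 to 0.143), and Sox2 KO early ICMs 33, a ratio of 0.161 (0.108 to 0.233). Their means of 5.00 ± 4.89 and 4.41 ± 2.04 CPM (SD, n = 8 each) were also below those of KO morulae. The pooled ratio of KO early ICM to KO morula was 0.438 (0.286 to 0.657) in the Oct4 line and 0.424 (0.276 to 0.639) in the Sox2 line, while in Ctrl embryos the early ICM stood above the morula.

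In late ICMs the pooled ratio of KO to Ctrl was higher in the Oct4 line than in the Sox2 line. Oct4 KO late ICMs held 63 UMIs against 137, a ratio of 0.409 (0.299 to 0.556), with levels from 2.33 through a median of 8.62 to 29.6 CPM, and 6 of 8 lay below the lowest Ctrl. Sox2 KO late ICMs held 19 against 187, a ratio of 0.108 (0.0636 to 0.173), and all 8 lay below all Ctrl. From early to late ICM the pooled level went up 2.15-fold in Oct4 KO embryos (1.39 to 3.36) and stood at 0.657 of the early level in Sox2 KO embryos (0.353 to 1.19). Oct4 KO late replicate 2-7 held 23 of the 63 UMIs of its group. Without it the late ratio of Oct4 KO to Ctrl was 0.299 in place of 0.409, so the 2.15-fold rise rests in part on that embryo. The intervals cover counting only, and this difference between lines was not tested. The fitted log2 differences from Ctrl were −3.20 and −1.21 in the Oct4 line and −2.55 and −3.06 in the Sox2 line.

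Since Pecam1 also marks endothelium and blood cells, the markers of both are given beside it. The summed level of 6 endothelial markers was 0 to 32.1 CPM in Oct4 KO late ICMs, with a median of 14.2, against 0 to 11.7 CPM in Ctrl. Most of it was Tie1, which rose by 2.55 on the log2 scale in Oct4 KO late ICMs (edgeR adjusted p = 0.00229), while Kdr was at 0 and Cdh5 at 3 UMIs over the 8 embryos. Of the 5 blood cell markers listed, 3 were tested. The transcription factors Gata1 and Spi1 rose by 4.17 and 1.68 in Oct4 KO late ICMs (edgeR adjusted p = 3.35e-08 and 5.93e-06), as they did in Oct4 KO early ICMs, and the blood marker sum was 49.5 to 88.3 CPM in MWT morulae. Whether these genes and the Pecam1 that remained share cells was not tested.

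Among 17 tested relatives of Pecam1 in the immunoglobulin family, 0 rose and 3 fell in Oct4 KO early ICMs, and 1 rose and 7 fell in late ICMs. Icam2, an adhesion molecule that binds integrins of leukocytes, fell by 5.49 in Oct4 KO late ICMs (edgeR adjusted p = 3.91e-06), and Jam3, a junctional adhesion molecule, fell by 3.81 (adjusted p = 0.00390). In the Sox2 line Icam1 fell in early and in late ICMs, by 2.94 and 3.02 (edgeR adjusted p = 0.0417 and 6.57e-05), and Cd47 rose by 2.00 in early ICMs (adjusted p = 0.0337). The list's medians were −0.57 and −0.95 in the Oct4 line and 0.02 and −0.19 in the Sox2 line. A further list of surface proteins that mark pluripotent cells had 15 tested genes, of which 6 fell in Oct4 early, 4 in Oct4 late, 2 in Sox2 early and 2 in Sox2 late ICMs, and 0 rose in each. Il6st, the gp130 subunit of the LIF receptor, fell in all 4, by 6.00 and 3.88 in the Oct4 line and by 2.7 and 3.01 in the Sox2 line (edgeR adjusted p = 2.72e-12, 6.42e-12, 1.94e-06 and 1.77e-09). That list's medians were −1.44, −1.0, −0.18 and −0.36. For both lists, the shares of all genes called higher and lower were 4.77% and 6.11% in Oct4 early and 9.28% and 8.84% in Oct4 late ICMs. In Sox2 early ICMs they were 1.57% and 1.69%, and in Sox2 late ICMs 3.36% and 3.61%.

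Across the contrasts that chose them, 4 of the members were called lower in Oct4 early and in Oct4 late ICMs, and 3 in Sox2 early and in Sox2 late ICMs, where 6.11%, 8.84%, 1.69% and 3.61% of all genes were called lower. Nothing is read from these counts, because the contrasts fixed them. The choice had no numeric limit. For Pecam1, chosen for lying below Ctrl in both lines, the narrowest gap was in Oct4 KO late ICMs, 63 UMIs against 137. Among genes with 0 UMIs in all Oct4 KO late ICMs, ranked by their UMIs in Oct4 Ctrl late ICMs, the order began with Mal at 152, Kit and Pcdh19 at 133 each and Sirpa at 109. Sirpa is a surface receptor for Cd47. This ranking ran over 2445 genes that had 0 UMIs in the KO and at least 1 in Ctrl.

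The late ICM samples carry a first number, 1 or 2, in their names, whose meaning the labels do not give. Kit, Mal and Pcdh19 had 0 UMIs in Oct4 KO late ICMs of both numbers. Pecam1 was at a pooled 6.2 CPM in KO against 23.3 in Ctrl for number 1, and at 14.5 against 30.2 for number 2. In the Sox2 line Kit was at 3.60 against 7.82 CPM for number 1 and at 0.634 against 20.4 for number 2, so its KO level was below Ctrl in both, by different amounts. Pecam1 was at 3.90 against 36.2 CPM and at 1.90 against 18 CPM, and Pcdh19 at 2.10 against 7.24 and at 4.12 against 13.7.

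The MWT embryos of the Oct4 line, which played no part in the choice, give the levels of the members over the titled stages. Morulae were taken whole, while ICMs were, per the protocol, cultured with the MEK inhibitor and freed of outer cells. Stage, culture, inhibitor and cell content therefore cannot be told apart in the step from morula to early ICM. From morula to early ICM, Mal, Pcdh19 and Pecam1 rose and Kit did not pass the test. From early to late ICM, Kit and Mal rose, and Pcdh19 and Pecam1 did not pass. Kit, Mal and Pcdh19 were chosen for late ICMs in which Ctrl held them and KO did not. That choice favours genes that are high at this stage, so the step to the late ICM is not free of it, although MWT embryos took no part. Nothing is read from the number of members that rose in it. The calls of Mal were lost under some of the alternatives given with its values. Mal and Pcdh19 entered this test only through the ICM stages, where they are high, so nothing is read from the number of members that rose into the early ICM. Without a filter on low counts this step was 3.00 for Mal and 3.04 for Pcdh19 (edgeR adjusted p = 0.00455 and 0.000347). These embryos were fitted together with all others over 13923 genes by edgeR's quasi-likelihood test. In the step to the early ICM 15.3% of genes were called higher and 12.3% lower, and in the step to the late ICM 7.25% and 5.95%.

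For Kit, the 7 MWT morulae ran from 0 through a median of 1.07 to 4.52 CPM, and the 5 MWT early ICMs stood at 1.11, 8.32, 1.85, 0 and 0.95 CPM. The MWT late ICMs ran from 5.34 through a median of 37.0 to 105 CPM. Of 8 late ICMs, 7 lay above all early ICMs, and the groups overlapped only through early ICM replicate 3, at 8.32 CPM. The change was 0.78 ± 0.88 (log2, SE) into the early ICM (edgeR adjusted p = 0.497) and 4.12 ± 0.65 into the late ICM (adjusted p = 3.65e-07). The exact permutation test over embryos on log2(CPM + 1), two-sided and 1 of 32 such tests, gave p = 0.476 and p = 0.00155. Without replicate 3 the first change was −0.32 in place of 0.78, so its direction rests on that embryo, and the second was 5.22 in place of 4.12.

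For Mal, the MWT morulae ran from 0 through 0 to 1.07 CPM, and the early ICMs stood at 4.46, 17.8, 2.77, 1.11 and 0 CPM. The late ICMs ran from 1.78 through a median of 17 to 29.6 CPM, so that neighbouring stages overlapped. The change was 3.03 ± 0.88 into the early ICM (edgeR adjusted p = 0.00304) and 1.68 ± 0.60 into the late ICM (adjusted p = 0.0265), with exact permutation p = 0.0189 and p = 0.0287. Replicate 3 held 15 of the 23 Mal UMIs of the early ICMs. Without it the first change was 1.80 and was not called (edgeR adjusted p = 0.146), and the second was not called without early replicate 1, 7, 8 or 9 (1.34 to 1.64, adjusted p = 0.0526 to 0.109). Without replicate 3 the second change was 2.91 and was called (edgeR adjusted p = 0.000973). With DESeq2 the second change was 1.71 and was not called (adjusted p = 0.0661), nor was it by edgeR with only the 2 groups compared (1.69, adjusted p = 0.050). By limma on rlog values the first change was 0.79, under the limit of 1 for a call (adjusted p = 0.0286). That replicate also had the highest epiblast marker sum of the 5, at 3716 CPM, and its part in the Mal level was not tested.

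For Pcdh19, the MWT morulae ran from 0 through a median of 0.910 to 4.27 CPM. The early ICMs stood at 8.91, 22.6, 8.31, 8.91 and 11.4 CPM, all above the morulae, and the late ICMs ran from 5.34 through a median of 9.35 to 19.2 CPM. The change was 3.07 ± 0.75 into the early ICM (edgeR adjusted p = 0.000448, exact permutation p = 0.00126, the smallest this design allows) and −0.19 ± 0.59 into the late ICM (adjusted p = 0.849). The second was 0.15 without early ICM replicate 3.

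For Pecam1, the MWT morulae ran from 3.10 through a median of 13.1 to 20.4 CPM, and the early ICMs stood at 34.5, 48.7, 42.5, 36.8 and 43.7 CPM, again with no overlap. The late ICMs ran from 22.2 through a median of 34.4 to 58.7 CPM. The change was 1.84 ± 0.42 into the early ICM (edgeR adjusted p = 0.000168, exact permutation p = 0.00253) and −0.21 ± 0.38 into the late ICM (adjusted p = 0.737).

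**Figure D2:**
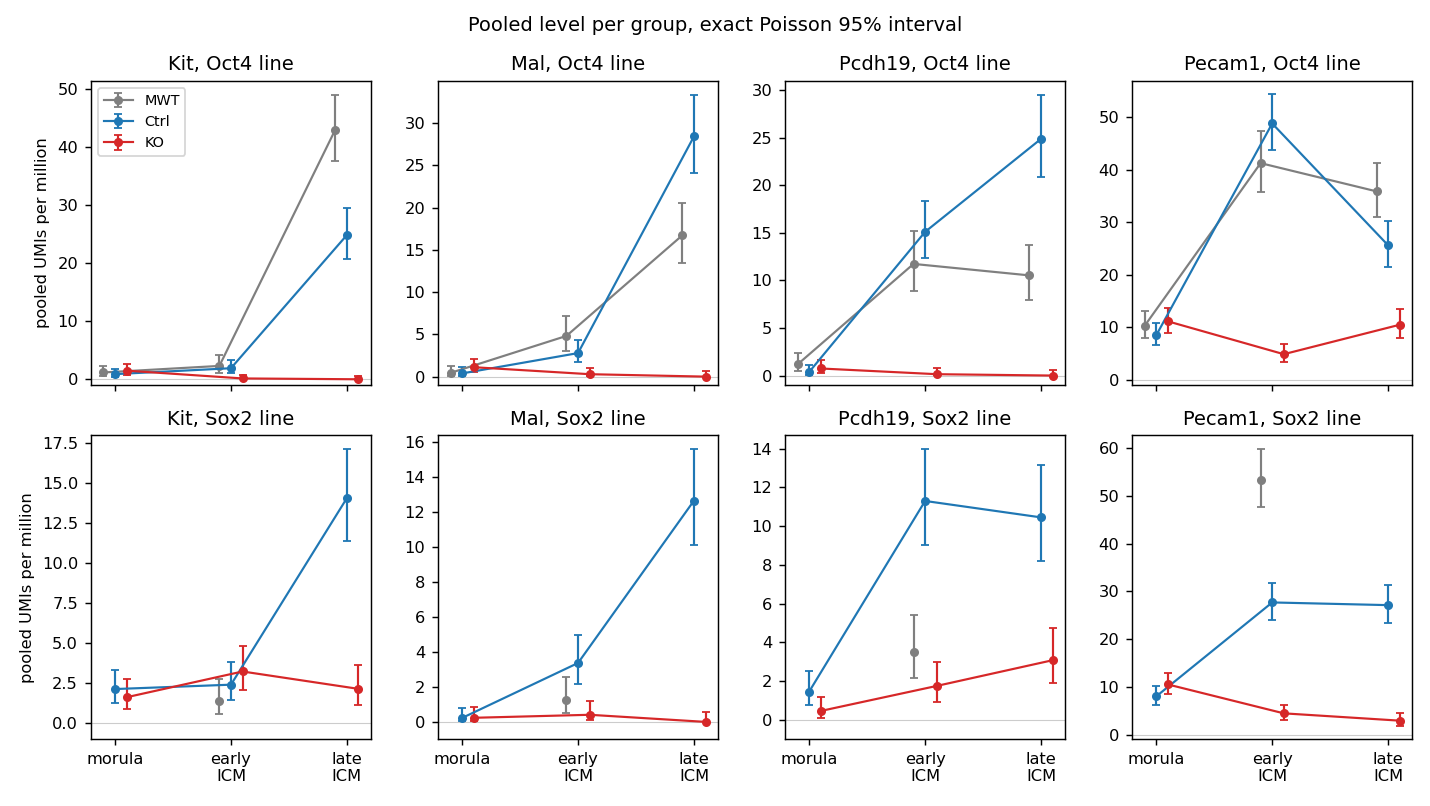
Pooled level of each member at the 3 stages, as CPM over the summed UMIs of a group on linear axes of their own scale, with bars for the exact Poisson 95% interval, which covers counting error only, for MWT, Ctrl and KO embryos of the Oct4 line (top) and the Sox2 line (bottom). Kit and Mal climb between the early and the late ICM in Ctrl embryos, Pcdh19 and Pecam1 already stand high in the early ICM, and in late ICMs the KO level lies below Ctrl for all 4 genes in both lines.

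Over the same steps the lists differed in how many of their genes were called. Of the 9 epiblast markers 7 rose into the MWT early ICM and 4 into the late ICM, and none fell. Of the 9 trophectoderm markers 0 rose and 3 fell into the early ICM, and 1 rose and 1 fell into the late ICM. Of the 6 primitive endoderm markers tested, 3 rose and 1 fell into the early ICM, and 0 rose and 2 fell into the late ICM. The part of such shifts in the levels of the members was not tested. Of the surface proteins of pluripotent cells, 7 of 14 rose and 0 fell into the early ICM, led by Lifr, the LIF receptor, at 5.69 (edgeR adjusted p = 2.69e-06). Of the immunoglobulin-family genes 5 of 17 rose and 0 fell, with Jam2 at 3.55 (edgeR adjusted p = 1.26e-19). Of the MARVEL-domain genes 2 of 16 rose and 6 fell, among them Plp2, which fell by 1.46 (edgeR adjusted p = 2.01e-05). Of the Kit signalling genes 3 of 21 rose and 1 fell, and of the protocadherin, cadherin and WAVE genes 2 of 14 rose and 1 fell. Into the late ICM, 4 of 17 immunoglobulin-family genes rose and 1 fell, 1 of 21 Kit signalling genes rose and 3 fell, 3 of 16 MARVEL-domain genes rose and 1 fell, 1 of 14 protocadherin-list genes rose and 0 fell, and 3 of 14 surface proteins rose and 2 fell. Icam1 rose by 2.56 and Pdgfra fell by 3.18 (edgeR adjusted p = 0.000297 and 3.43e-05). The medians of these lists in the step to the early ICM were 1.56 for epiblast, −1.12 for trophectoderm and 0.77 for primitive endoderm markers. They were 1.36 for surface proteins, 0.30 for the immunoglobulin family, −0.28 for MARVEL genes, −0.09 for Kit signalling and 0.49 for the protocadherin list. Over all genes the median was 0.07.

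The deletion that all Ctrl and KO mothers carried was examined by setting Ctrl against MWT embryos. Only the Oct4 morulae stand apart from the choice, and there 0 of 4 members were called by edgeR's quasi-likelihood test, where 0.0646% of all genes were called. At an unadjusted p under 0.05, 0 of the 4 passed, by edgeR or by the exact permutation test, and DESeq2 and limma on rlog values called 0. The 4 differences lay between −1.36 and −0.17 on the log2 scale. Kit, Mal and Pcdh19 rested on 3 to 8 UMIs per group, with SEs of 0.90 to 1.09, so a change at the call limit was not detectable. Pecam1, on 67 and 70 UMIs, had an SE of 0.44. The lack of calls is therefore not read as a lack of change. The Ctrl ICMs also served in the contrasts that chose the genes for standing above KO, so the differences of Ctrl from MWT ICMs follow as a description, with no test. Of all genes, 0.373% were called in Oct4 early ICMs, 0.804% in Oct4 late ICMs and 2.58% in Sox2 early ICMs, and nothing about the members is read from these shares. The first share stands for 52 genes, and 31, 29, 30 and 23 genes were called without MWT early ICM replicate 1, 3, 8 or 9, and 71 without replicate 7.

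In Oct4 late ICMs Pcdh19 ran from 11.7 through a median of 23.3 to 43.7 CPM in Ctrl and from 5.34 through a median of 9.35 to 19.2 CPM in MWT, so the groups overlapped. The fitted log2 difference was 1.32 ± 0.51 (SE). Kit stood at −0.75 ± 0.43, Mal at 0.89 ± 0.46 and Pecam1 at −0.37 ± 0.36. Between those groups the primitive endoderm markers also differed: 4 of 6 tested were higher in Ctrl, whose summed level was 281 to 1441 CPM against 107 to 451 CPM. Their part in the Pcdh19 level was not tested.

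In Sox2 early ICMs, Pecam1 was at 20.7 to 36.9 CPM in Ctrl and at 26.9 to 74.4 CPM in MWT, with medians of 29.0 and 54.3 and a fitted log2 difference of −0.93 ± 0.34 (SE). Pcdh19 ran from 0 through a median of 3.67 to 8.88 CPM in MWT and stood at a median of 10.5 in Ctrl, a difference of 1.69 ± 0.61. Mal stood at 1.35 and Kit at 0.75. The marker genes of other cells differed between these groups too. The primitive endoderm sum was 208 to 825 CPM in Ctrl and 890 to 1314 CPM in MWT, with no overlap. Fgf4 and Tdgf1, epiblast genes, were higher in Ctrl by 2.04 and 1.15 (edgeR adjusted p = 3.59e-05 and 0.00974), and Gata6 and Cdx2, of primitive endoderm and trophectoderm, were lower, at −1.23 and −2.11 (edgeR adjusted p = 0.00271 and 0.00110). Their part in the levels of the members was not tested.

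In the Oct4 early ICMs the differences lay between −0.80 and 0.34. Of these, Kit at −0.26 and Mal at −0.80 turned to 0.85 and 0.43 without MWT early ICM replicate 3. Pcdh19 at 0.34 turned to −0.13 by limma on rlog values and to −0.41 as a difference of mean log2(CPM + 1). Pecam1 at 0.26 turned to −0.07 with same-numbered embryos as blocks.

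Loss of the zygotic gene was tested in morulae, which also stood outside the choice. No member was called in either line by edgeR, where 0.804% of all genes were called in Oct4 KO morulae and 0.00712%, that is 1 gene, in Sox2 KO morulae, and 0 of the 8 values passed an unadjusted p of 0.05. DESeq2 and limma also called 0 of them. Oct4 KO morulae differed from Ctrl by 0.73 ± 0.78 in Kit, 1.34 ± 0.93 in Mal, 0.82 ± 1.15 in Pcdh19 and 0.43 ± 0.44 in Pecam1 (edgeR adjusted p = 0.637 to 0.877). The Pcdh19 value rested on Oct4 KO replicate 6, which held 5 of the 6 UMIs of its group, and was −0.89 without it. Sox2 KO morulae differed by −0.36 ± 0.65 in Kit, 0.03 ± 1.01 in Mal, −1.40 ± 0.98 in Pcdh19 and 0.42 ± 0.44 in Pecam1 (adjusted p = 1). For Kit, Mal and Pcdh19 these sums rest on 2 to 19 UMIs per group, and with SEs of 0.65 to 1.15 a change of 2-fold was not detectable at this depth. Pecam1, on 67 to 90 UMIs, had an SE of 0.44, and a 2-fold change would not clearly stand out there either. Its Oct4 KO morulae ran from 1.11 through a median of 8.71 to 20.7 CPM and its Ctrl morulae from 0 through 7.09 to 20.4 CPM, overlapping almost entirely. Of the epiblast markers, Gdf3 alone was called in the Oct4 KO morula, where it fell by 4.22 (edgeR adjusted p = 9.60e-05).

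**Figure D3:**
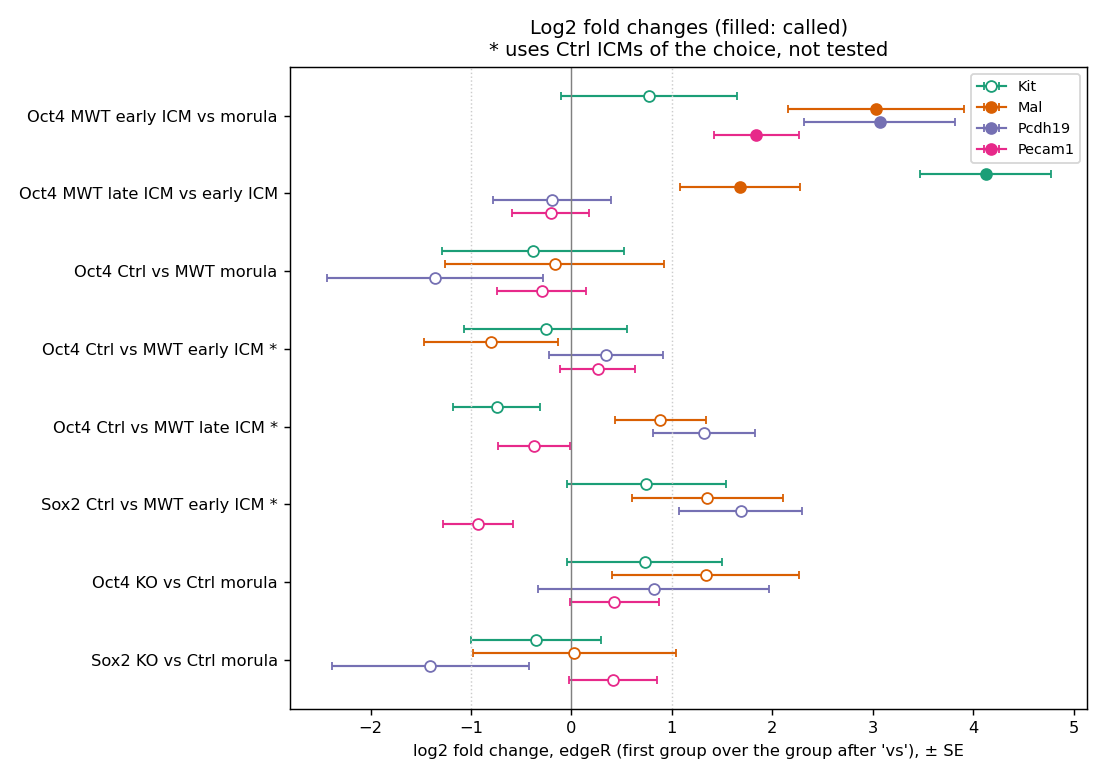
Log2 difference of each member, with bars of 1 SE from the edgeR fit, in 8 comparisons, of which those with an asterisk use Ctrl ICMs that also served in choosing the genes and are not tested. Filled points mark the 5 calls, all of them in the MWT stage steps. The comparisons of morulae hold none, and nothing is read from the open points of the comparisons with an asterisk.

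Over the 16 groups, the highest mean of Kit was in Oct4 MWT late ICMs (43.7 ± 34.0 CPM, SD, n = 8), that of Mal and of Pcdh19 in Oct4 Ctrl late ICMs (29.3 ± 15.7 and 25.1 ± 11.6 CPM, n = 8), and that of Pecam1 in Sox2 MWT early ICMs (52.9 ± 14.6 CPM, n = 7). After its leader Kit ran through Oct4 Ctrl late (24.3 ± 16.0) and Sox2 Ctrl late ICMs (13.7 ± 10.2) to 3.34 ± 1.72 CPM in Sox2 KO early ICMs, and that last gap was the only one of 15 between neighbouring groups larger than the SD of both. All other groups lay below it, down to 0 in Oct4 KO late ICMs. Mal descended through Oct4 MWT late (16.4 ± 8.69) and Sox2 Ctrl late ICMs (12.6 ± 11.8) to Oct4 MWT early ICMs (5.23 ± 7.24), and no neighbours differed beyond their spread. Pcdh19 descended through Oct4 Ctrl early (14.6 ± 14.3), Oct4 MWT early (12 ± 6.02), Sox2 Ctrl early (11.7 ± 8.14), Oct4 MWT late (10.4 ± 4.53) and Sox2 Ctrl late ICMs (10.2 ± 7.09), with no neighbours apart. Pecam1 descended through Oct4 Ctrl early (49.0 ± 22.3), Oct4 MWT early (41.2 ± 5.67), Oct4 MWT late (35.8 ± 12.9), Sox2 Ctrl early (28.1 ± 6.17), Sox2 Ctrl late (27.5 ± 12.6) and Oct4 Ctrl late ICMs (26.8 ± 13.4). The next group, Oct4 KO morulae at 11.1 ± 6.89 CPM, lay beyond the spread, and Oct4 KO late ICMs at 10.6 ± 9.31 CPM stood among the morulae. By the authors' rlog values 4 of the 60 neighbouring pairs were apart and by CPM 2.

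Genes most like each member were sought by the Pearson correlation of the 16 group means of log2(CPM + 1), among the 7554 genes whose mean reached 20 CPM in some group. The group means share their embryos and depths and include the groups that chose the members, so the values describe likeness and carry no p. Kit was nearest to Rpp25, a protein subunit of RNase P (r = 0.929), Ankrd45 (0.923) and Smim15 (0.919). Mal was nearest to Slc7a3, a transporter of cationic amino acids (0.966), Morc1, known from the male germ line (0.955), and Zscan10, a transcription factor of embryonic stem cells (0.953). Pcdh19 was nearest to Ephx2, an epoxide hydrolase (0.962), Cpe, a carboxypeptidase that matures peptide hormones (0.952), and Diaph2, an actin-nucleating formin (0.949). Pecam1 was nearest to Zfp459 (0.905), Ddhd1, a phospholipase (0.902), and Senp2, a SUMO protease (0.887).

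These neighbours differed in how far they were kept without Oct4. In late ICMs, Slc7a3 was at a mean of 39.7 CPM in Oct4 Ctrl and 1.32 CPM in Oct4 KO, and at 39.7 and 0.742 CPM in the Sox2 line, and Zscan10 at 59.6 and 0.849 CPM and at 43.9 and 3.24 CPM. Ephx2 was at 20.4 and 0.161 CPM in the Oct4 line and at 9.35 and 3.31 CPM in the Sox2 line. Smim15, by contrast, stood at 48.8 and 32.2 CPM in the Oct4 line, so a high correlation over groups did not require near absence. Among the members themselves r was 0.881 for Kit and Mal, 0.877 for Mal and Pcdh19, 0.775 for Pcdh19 and Pecam1, 0.716 for Kit and Pcdh19, 0.662 for Mal and Pecam1 and 0.412 for Kit and Pecam1.

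**Figure D4:**
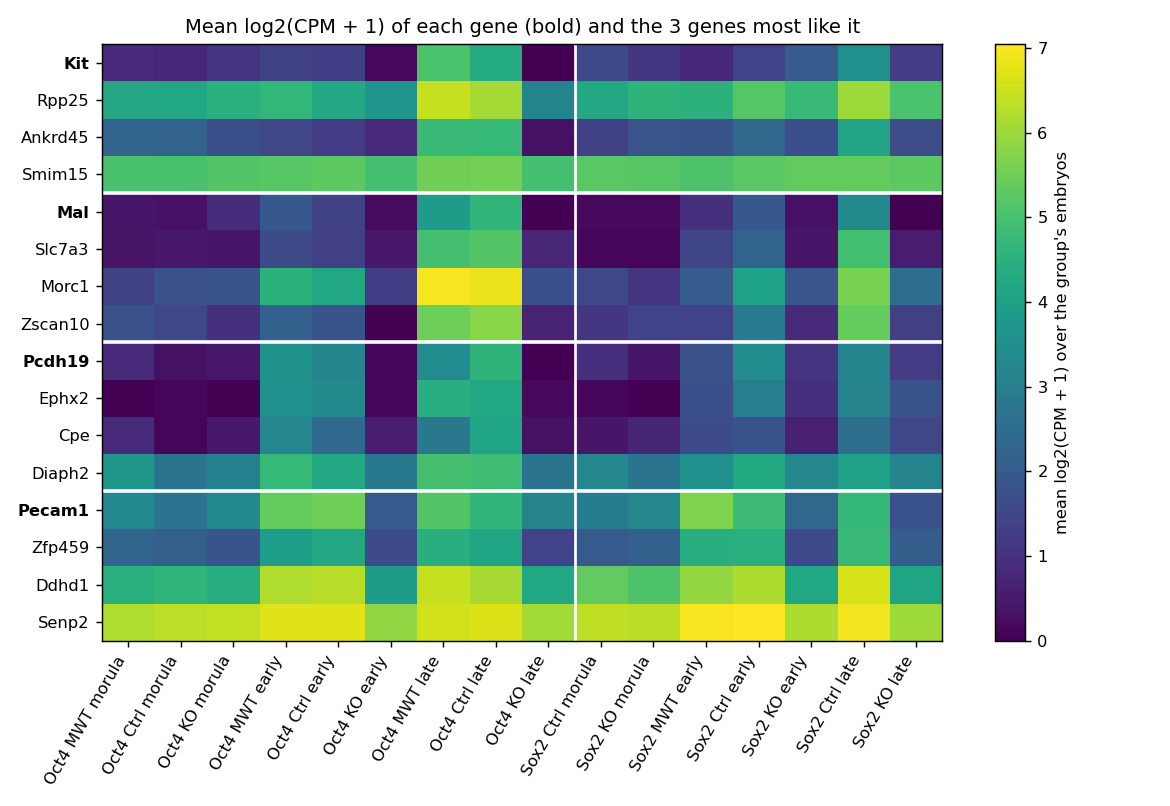
Heat map of the mean log2(CPM + 1) in each of the 16 groups (columns, the Oct4 line left and the Sox2 line right of the white line) for each member (bold) and the 3 genes most like it (rows), from dark at 0 to yellow at the highest mean. Kit, Mal and Pcdh19 are at 0 in Oct4 KO late ICMs, where Smim15, a companion of Kit, keeps 32.2 CPM.

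Whether single late ICMs rich in 1 member were rich in another was examined within the Oct4 Ctrl, Oct4 MWT and Sox2 Ctrl late ICMs, with 8 embryos and 6 pairs in each, or 18 relations. The closest were Kit with Mal in Oct4 MWT late ICMs (Pearson r = 0.844, exact permutation p = 0.00878, Benjamini-Hochberg adjusted p = 0.121 by permutation) and Kit with Pcdh19 in Sox2 Ctrl late ICMs (r = 0.813, exact permutation p = 0.0135, adjusted p = 0.121). Spearman's rho for these was 0.810 (exact permutation p = 0.0218) and 0.786 (exact permutation p = 0.0279). Without the 2 embryos farthest from the median of Kit, r was 0.769 and 0.654. In the other groups Kit with Mal gave r = 0.215 in Oct4 Ctrl (rho = 0.190, exact permutation p = 0.663 for r) and r = −0.239 in Sox2 Ctrl late ICMs (rho = −0.167, exact permutation p = 0.565). Kit with Pcdh19 gave r = −0.0746 in Oct4 Ctrl (rho = −0.0238, exact permutation p = 0.860) and r = 0.638 in Oct4 MWT late ICMs (rho = 0.524, exact permutation p = 0.0854). Without the 2 farthest embryos r in Oct4 Ctrl late ICMs was 0.769 for Kit with Mal and 0.768 for Kit with Pcdh19, so the low values there rest on those embryos and no difference between the groups is read from them. Kit with Pecam1 was negative in all 3 groups, at r = −0.636 in Oct4 Ctrl, −0.449 in Oct4 MWT and −0.686 in Sox2 Ctrl (rho = −0.524, −0.333 and −0.690, exact permutation p = 0.0963, 0.268 and 0.0668 for r). None of the 18 passed the correction.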

How the data were processed

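The authors extracted UMIs with UMI-tools, trimmed with Cutadapt, aligned reads to mm10 with TopHat2 and to spike-in sequences with Bowtie2, used featureCounts for assignment to GENCODE vM23 genes, and corrected the UMI numbers with TRUmiCount. Tool versions are not given in the sources used here. The deposited count table holds unnormalized UMI counts of 29022 genes in all embryos. The second table deposited by the authors holds rlog values from DESeq2, a regularized log2 scale, for 15747 genes.

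Groups were taken from the labels. CPM was computed from each embryo's total. Genes were kept where some stage had UMIs in 0.5 or more of its embryos, and were fitted with TMM scaling by edgeR 4.0.16 in R 4.3.3 (glmQLFit, glmQLFTest): 14053 genes over 96 Ctrl and KO embryos in 12 groups for KO contrasts, and 13923 genes over all embryos in 16 groups for MWT contrasts. All 4 genes passed this filter, Kit and Pecam1 at each stage and Mal and Pcdh19 at the ICM stages. A call needed a Benjamini-Hochberg adjusted p under 0.05 over all genes tested and a change, up or down, of 1 or more on the log2 scale. The SE was taken from the fold change and its F statistic. Each member was also compared by an exact two-sided permutation test over embryos in 8 comparisons, 32 tests in all. Those of Ctrl against MWT ICMs were planned as tests but share the Ctrl ICMs with the choice of the genes, so their values are given without a p. Intervals of pooled ratios are exact at the 95% level, and a group at 0 was given a floor of 3 UMIs. Alternatives were DESeq2 1.42.0, limma 3.58.1 on rlog values, totals in place of TMM, no filter, only the 2 groups compared, blocks and leaving out embryos. Only the edgeR fit of Oct4 KO against Ctrl morulae was tried on simulated counts first. Changes were placed there in genes with more UMIs than Kit, Mal and Pcdh19 have in morulae, so it does not cover such low counts. The other fits were not simulated.

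The members and gene lists were chosen with earlier results of these data known. Named beside the members are the targeted genes, up to 4 called genes of each list by size of change, the 3 genes most like each member (leaving out gene models named Gm and digits, Rik clones and numbered pseudogenes), and the 5 top genes at 0 in Oct4 KO late ICMs, of which 1 is not reported here. Endothelial, blood, germ cell, epiblast, trophectoderm and primitive endoderm markers were used as lists. Same-numbered embryos were checked for pairing by the correlation of their deviations from the group means. Embryos are separate animals, and nothing states which shared a litter or a day.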

Additional observations from a re-analysis of the deposited data

Results flagged for a closer look

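In the 60 combinations of a gene and a group of 5 to 8 embryos that held any UMI, the highest or lowest embryo was compared with the others by the gap to its nearest neighbour over the whole range, at the 95% critical value of Dixon's test. Chance marks about 1 in 20 groups where values are normally distributed, which groups of a few UMIs are not, so nothing is read from the number marked. There were 13, all at the high end. In 5 of the 13 all other embryos of the group were at 0, and the marked embryo held 1 or 2 UMIs.

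Oct4 MWT early ICM replicate 3 stood apart in 3 genes, with Kit at 8.32 CPM, Mal at 17.8 CPM and Pcdh19 at 22.6 CPM, on 7, 15 and 19 UMIs. Its epiblast and blood marker sums, 3716 and 26.1 CPM, were also the highest of the 5. In Oct4 KO early ICMs the few UMIs left came from single embryos: Kit at 1.18 CPM in replicate 5, Mal at 2.08 CPM in replicate 10 and Pcdh19 at 1.06 CPM in replicate 1. These are 3 different embryos, and without each the gene is at 0 in the group.

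Pcdh19 was marked in Sox2 KO ICMs, at 8.30 CPM in early replicate 8 and at 15.9 CPM in late replicate 2-6. Among morulae, Kit was at 4.52 CPM in Oct4 MWT replicate 5, Mal at 1.85 CPM in Sox2 Ctrl replicate 5 and at 1.66 CPM in Sox2 KO replicate 9, and Pcdh19 at 5.28 CPM in Oct4 KO replicate 6 and at 2.13 CPM in Sox2 KO replicate 21. The Oct4 KO morula with the high Pcdh19 value held 5 of the 6 UMIs of its group and the highest blood marker sum, 188 CPM. What set these embryos apart was not tested.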

How the results depend on the processing

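All called changes and all differences that described the choice, where at least 1 on the log2 scale, kept their sign. Of 465 member values under alternatives, 14 had the other sign, all of them of members that were not called. Of the member changes in comparisons other than KO with Ctrl ICMs, 342 values kept their side of the call limits, 8 fell below them and 3 went past them. The 3 were of Pcdh19 between Ctrl and MWT ICMs, where the Ctrl ICMs also served in the choice, so nothing is read from them. All 8 losses were of Mal in the MWT stage steps. Between early and late MWT ICMs 2 members were called, and 1 with only the 2 groups compared (Mal adjusted p = 0.050) or with DESeq2 (0.0661). The number ran from 1 to 2 when each early ICM was left out. Mal also lost its call from morula to early ICM in limma on rlog values (0.79 on the log2 scale) and without early ICM replicate 3. Of 112 values of the differences that described the choice, 17 moved by more than the spread, 12 of them by limma on rlog values. Members at or under −1 in Oct4 KO early ICMs were 4, and 2 by limma on rlog values (Kit −0.41, Mal −0.53). By the same method Pecam1 in Oct4 KO late (−0.98), Mal in Sox2 KO early (−0.72) and Pcdh19 in Sox2 KO late ICMs (−0.98) also came out above −1. Neighbouring groups farther apart than their spread were 2 of 60 pairs by CPM and 4 by rlog. At about 1 UMI per CPM, levels of Kit, Mal and Pcdh19 under a few CPM rest on single molecules.

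Same-numbered embryos were not taken as pairs, since in no comparison of 3 or more pairs did the correlation of every pair's deviations exceed 0.1 (−0.203 to 0.227). In these comparisons 21 of 48 embryos were nearest their own number, from 1 of 10 between Oct4 Ctrl and MWT early ICMs to 6 of 8 between Sox2 KO and Ctrl late ICMs, so a shared litter or day is not excluded. With the replicate block, the value of 1 member, Pcdh19 at 1.92, lay past the call limits between Sox2 Ctrl and MWT early ICMs, against 0 without it, in a contrast given as a description only. In the other comparisons where a block could be fitted, the number of members called stayed as it was. The blocks for MWT comparisons and the ratios without single embryos were chosen after seeing the data. Over all genes the block gave 282 calls against 157 for the same Oct4 morulae without it, 842 against 864 in Oct4 early, 420 against 227 in Sox2 early and 640 against 321 in Sox2 late KO contrasts, 2813 against 2924 from MWT morula to early ICM, and 41 against 21, 11 against 14 and 302 against 61 for Ctrl against MWT in Oct4 morulae, Oct4 early and Sox2 early ICMs. No paired analysis was possible because fewer than 2 numbers were shared in Sox2 KO morulae, Oct4 KO late ICMs, the MWT step to the late ICM and Oct4 Ctrl against MWT late ICMs.

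Over all genes, DESeq2 on the same genes stayed within 1.5 times the number of calls, with 2393 against 2546 in Oct4 late, 1463 against 1530 in Oct4 early, 907 against 979 in Sox2 late and 449 against 458 in Sox2 early KO ICMs, except for Oct4 Ctrl against MWT morulae (15 against 9). Limma on rlog values changed the tool, the scale and the genes (15747) together. With it the calls went from 2546 to 1243 in Oct4 late and from 1530 to 610 in Oct4 early ICMs, from 979 to 448 in Sox2 late and from 458 to 206 in Sox2 early ICMs, from 3846 to 2013 and from 1838 to 853 in the MWT steps, from 113 to 51 in Oct4 KO morulae, from 359 to 134 in Sox2 Ctrl against MWT and from 52 to 28 in Oct4 Ctrl against MWT early ICMs. Oct4 Ctrl against MWT late ICMs gave 112 calls, 68 by limma on rlog values and 37 with only the 2 groups, and morulae 9 and 15 without a filter. The cause was not tested.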

Other observations

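Germ cell markers were listed because Kit is known from germ cells. Of the 4 tested, 0 were called in the Oct4 KO ICMs of either stage by edgeR's quasi-likelihood test. Dazl, an RNA-binding protein of germ cells, fell by 3.08 on the log2 scale in Sox2 KO late ICMs (edgeR adjusted p = 0.00128). In MWT embryos Ddx4, a germ cell RNA helicase, and Nanos3 rose by 2.93 and 2.22 into the late ICM (edgeR adjusted p = 0.00361 and 0.0456), the same step in which Kit and Mal rose, and Nanos3 fell by 2.10 into the early ICM (adjusted p = 0.0419).

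Primitive endoderm markers moved both ways without Oct4. Of the 6 tested, 2 were called higher and 3 lower in Oct4 KO late ICMs. Sox17 fell by 6.57 (edgeR adjusted p = 2.18e-06), Gata4 fell by 3.63 (adjusted p = 0.00179) and Lama1 fell by 1.40 (adjusted p = 0.0476), while Dab2 rose by 2.29 (adjusted p = 2.99e-08). Dab2, an endocytic adaptor, also rose by 2.45 in Oct4 KO early and by 1.79 in Sox2 KO early ICMs (edgeR adjusted p = 2.05e-08 and 0.000480). Of the 3 endothelial markers tested, Cdh5 fell by 3.32 in Oct4 KO early ICMs (edgeR adjusted p = 0.0317). Of the 3 blood markers tested, Gata1 rose by 3.04 in Sox2 KO late ICMs (edgeR adjusted p = 0.00128).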
